A study of Mus musculus with 3 samples.

Results

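The genes described are 38 type I interferon stimulated genes, chosen by symbol from general knowledge of the interferon response, with earlier results of these data known. A row was present for 37 of them among the 31053 genes of the count tables, and Mx2, which the GENCODE annotation lists as a polymorphic pseudogene, had none. Their UMIs (unique molecular identifiers, each counting 1 captured transcript molecule) were followed in cKit-enriched bone marrow cells of C57BL/6 mice, assayed by droplet single-cell 3' RNA sequencing. Kit is a receptor carried by haematopoietic stem and progenitor cells, and the enrichment also left many maturing neutrophils and B lineage cells in each library.

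There were 3 libraries, 1 per group. The twice-challenged library came from mice given Escherichia coli on 2 occasions and is marked 48 h, the once-challenged library from mice given it on 1 occasion and is marked 24 h, and the unchallenged library from mice at steady state. The labels do not give the challenge the hours are counted from, the route, the dose, the sex or the age of the mice, nor how many animals went into a library. Since no group had a second library, no test between groups was possible, and every interval below is an exact 95% Poisson or binomial interval that covers counting error only.

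Type I interferons are small secreted proteins that nearly all cells can sense. Binding to the receptor pair Ifnar1 and Ifnar2 activates the kinases Jak1 and Tyk2, and the signal leads to the factor ISGF3, which contains Stat2 and Irf9 and binds the interferon stimulated response element (ISRE) in the promoters of its targets. In bone marrow the response is known for drawing resting stem cells into division when it is acute, and many of its genes keep a tonic level without infection.

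The ISRE core was readable in the sequences just upstream of many members, and a few are shown because they belong to genes whose levels are described below. Among the 28 members with a promoter in the RefSeq table (build GRCm38.p6, 250 bases before to 50 bases after the annotated start), 14 held 2 copies of the letters GAAA separated by any 2 bases, on either strand, where 3.99% of all 27025 genes did in windows of the same length. The interferon gamma activated site, TTCNNNGAA, was found on either strand in 7 of the 28, against 9.55% of all genes. Below are 90-base windows that end before the transcription start, written 5' to 3' on the gene's own strand, with capitals marking each ISRE core, on whichever strand it was read; overlapping matches run together. Overlap between the 2 motifs was not looked for.
Isg15, chr4:156200840-156200929 (- strand): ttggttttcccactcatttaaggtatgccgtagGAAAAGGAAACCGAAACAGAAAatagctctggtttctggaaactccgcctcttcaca
Ifit1, chr19:34640759-34640848 (+ strand): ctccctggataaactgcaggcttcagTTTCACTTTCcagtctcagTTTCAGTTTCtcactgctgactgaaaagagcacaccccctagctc
Ifit3, chr19:34583362-34583451 (+ strand): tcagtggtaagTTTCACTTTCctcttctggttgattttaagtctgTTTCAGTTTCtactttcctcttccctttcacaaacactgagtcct
Ifit3b, chr19:34607758-34607847 (+ strand): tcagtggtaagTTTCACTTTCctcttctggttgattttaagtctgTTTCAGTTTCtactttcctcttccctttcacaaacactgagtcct
Rsad2, chr12:26456528-26456617 (- strand): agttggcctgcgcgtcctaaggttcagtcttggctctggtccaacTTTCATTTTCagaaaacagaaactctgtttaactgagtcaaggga
Bst2, chr8:71537552-71537641 (- strand): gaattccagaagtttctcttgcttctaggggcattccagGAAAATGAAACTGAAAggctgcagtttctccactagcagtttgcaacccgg
Oas3, chr5:120777690-120777779 (- strand): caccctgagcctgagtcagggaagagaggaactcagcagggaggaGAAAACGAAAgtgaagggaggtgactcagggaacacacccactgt

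Isg15 carried 3 overlapping cores in its window, and the windows of Ifit3 and its neighbour Ifit3b were identical over all 90 bases. No ISRE core was found in the promoter of 14 members, among them Irf7, Oasl2, Ifi44, Xaf1 and Ifi35. That says only that these letters are not in this window.

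After filtering, 8286, 8355 and 8814 cells remained in the twice-challenged, once-challenged and unchallenged libraries. Their median depth was 10250.5, 13004 and 10962.5 UMIs per cell, and the median mitochondrial share was 4.10%, 2.58% and 2.06%. The share of mitochondrial UMIs was thus highest in the library with the lowest member levels, and its part in the results was not tested. Between 84 and 107 cell barcodes were shared by any pair of libraries. Cells were clustered without using the members, and 19 of the 22 clusters were named from marker lists, giving 11 named cell groups. Clusters 8, 13 and 18 stayed unnamed. Where a cluster's name rests on these rebuilt groups, the word "like" is used. The labels name the source as bone marrow neutrophils, but most cell groups were of other lineages. Kit was at 138, 72.5 and 114 CPM in the stem and progenitor-like cells of the twice-challenged, once-challenged and unchallenged libraries, and at 5.22, 9.64 and 10.6 CPM in the immature neutrophil-like cells.

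Over all kept cells the summed level of the 37 members was 461 CPM (UMIs per 1000000 UMIs of all genes, 95% interval 457 to 466) in the twice-challenged library, 1331 CPM (1324 to 1337) in the once-challenged library and 969 CPM (964 to 975) in the unchallenged library. The summed level was thus highest in the library marked 24 h after a single challenge and lowest in the one challenged a second time. Ifi27l2a and Bst2 alone gave 36.9%, 42.4% and 34.6% of the member UMIs in the twice-challenged, once-challenged and unchallenged libraries, and without them the sums kept the same order, at 291, 766 and 634 CPM. The median member was at 5.83, 17.8 and 13.7 CPM in these libraries, and 12, 30 and 24 members reached 10 CPM.

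For single genes, a log2 ratio was computed after adding 10 CPM to both levels, for those that reached 100 UMIs in the 2 libraries summed, and a gene was counted as higher or lower past 1.5-fold on that scale. In the once-challenged library against the unchallenged one, 3 of 37 members were higher, Bst2, Irf7 and Oasl2, and 0 were lower, where 2.01% of all 12181 genes were higher and 1.53% lower. The median member ratio was 0.19 on the log2 scale, against 0.07 over all genes. In the twice-challenged library against the unchallenged one, 19 of 36 members were lower and 0 higher, where 4.0% of all genes were lower and 2.32% higher, and the median member ratio was -0.60 against -0.02 over all genes. Against the once-challenged library, the twice-challenged library had 21 of 37 members lower and 0 higher, where 8.44% of all genes were lower and 1.45% higher, and all 37 ratios were below 0. Each cluster was also weighted by its UMI share in the unchallenged library, an alternative chosen after seeing the data. Then 7 members were higher in the once-challenged than in the unchallenged library, with Ifi27l2a, Ifit1, Zbp1 and Rtp4 added. In the twice-challenged library, 16 were lower than in the unchallenged and 24 lower than in the once-challenged library. These counts cover all 37 members without the limit of 100 UMIs, and the shares of all genes under this mix are not given. The last 2 comparisons share the twice-challenged library, and the first and second share the unchallenged one, so they are not independent. Scaling by the median of ratios in place of total UMIs would move every gene by -0.19, 0.06 and 0.25 in the 3 comparisons in the order given, sizes that the member medians of the comparisons with the twice-challenged library exceed and that of the comparison of the once-challenged library with the unchallenged one does not.

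**Figure D1:**
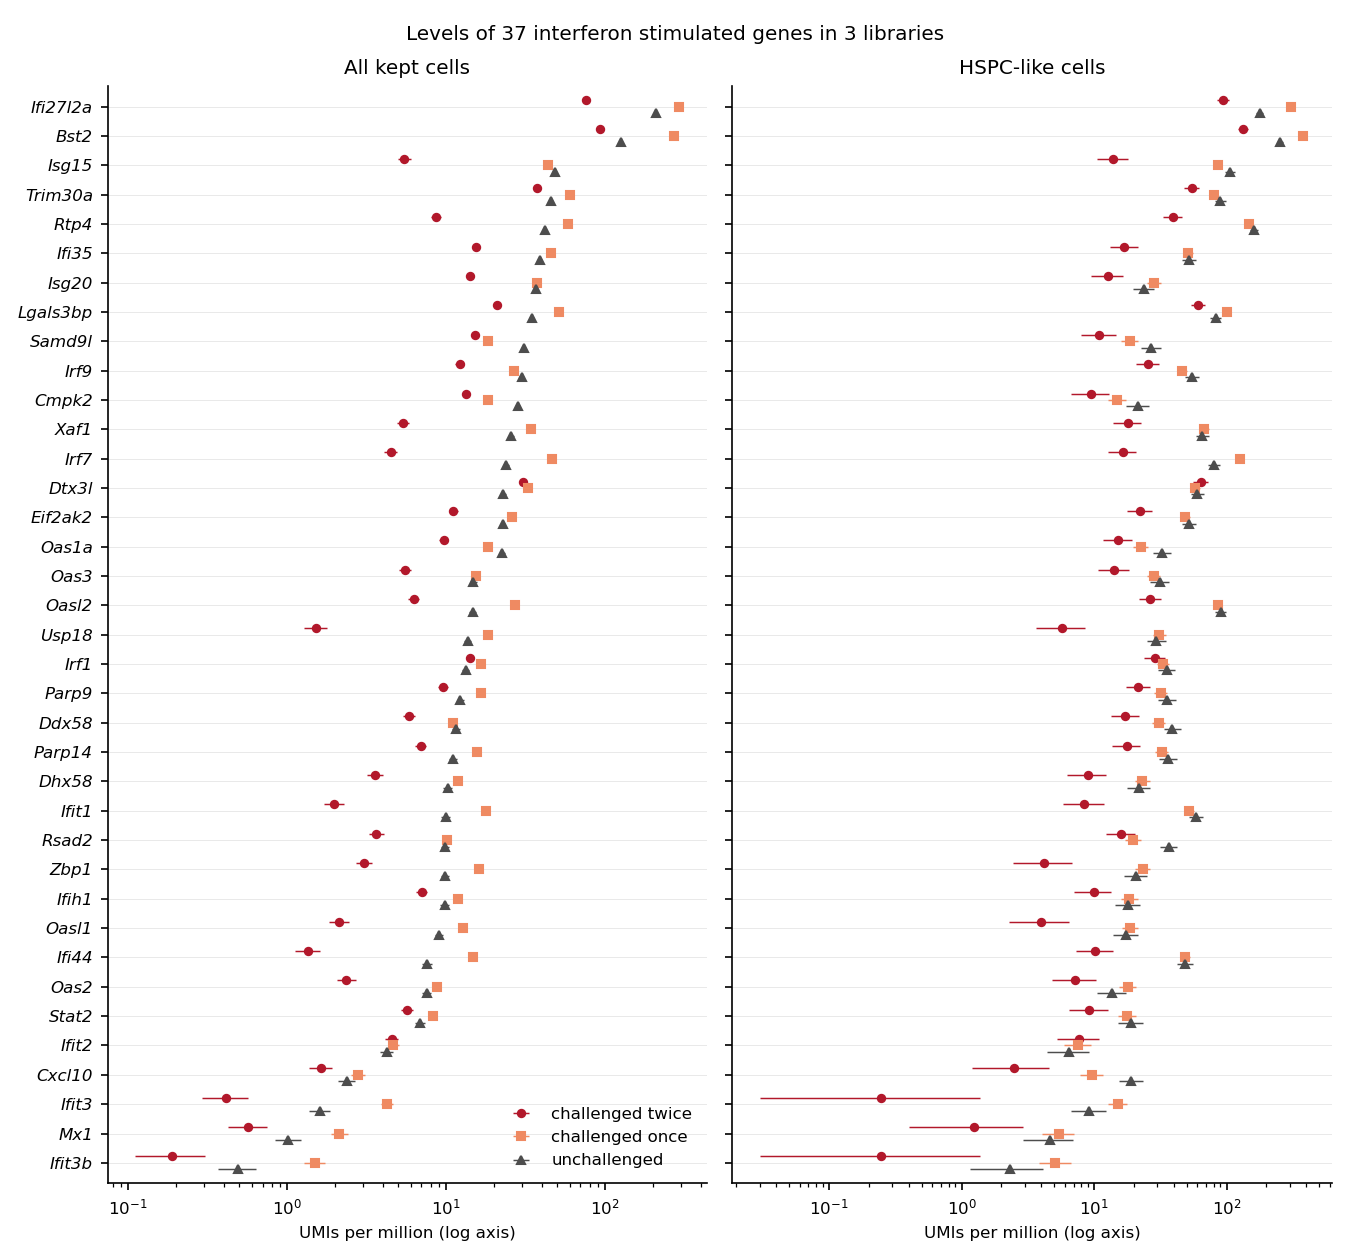
Level of each of the 37 members over all kept cells (left) and in haematopoietic stem and progenitor (HSPC)-like cells (right), in CPM on a log axis. Levels are given in the twice-challenged, once-challenged and unchallenged libraries, with exact 95% Poisson intervals. Over all kept cells, Bst2 and Ifi27l2a stand above the rest in each library, and 19 of the 36 members tested were lower in the twice-challenged library than in the unchallenged one by the 1.5-fold rule.

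The transcription factors of the response were split. Irf7, the factor that amplifies interferon production and is itself induced by ISGF3, was at 4.48 CPM (4.05 to 4.94) in the twice-challenged library, 46.3 CPM (45.1 to 47.5) in the once-challenged library and 23.8 CPM (22.9 to 24.7) in the unchallenged library. It was 1.94 times higher (1.86 to 2.04) in the once-challenged library than in the unchallenged one, and in the twice-challenged library it was 5.31 times lower (4.78 to 5.91) than in the unchallenged library and 10.3 times lower (9.34 to 11.5) than in the once-challenged library. Irf9, the DNA-binding subunit of ISGF3, was at 12.2, 26.9 and 29.9 CPM in the twice-challenged, once-challenged and unchallenged libraries, so the low value was again in the twice-challenged library, while the other two were close. Its partner Stat2 was at 5.65, 8.30 and 6.83 CPM in those libraries, and neither ratio passed 1.5-fold. Irf1, which both type I and type II interferon induce, was nearly level at 14.1 CPM in the twice-challenged, 16.6 CPM in the once-challenged and 13.3 CPM in the unchallenged library.

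Isg15 and the protease Usp18 were low in the twice-challenged library. Isg15, a ubiquitin-like modifier (GRCm38 chr4:156199424-156200818, minus strand), was at 5.47 CPM (5.0 to 5.98) in the twice-challenged library, 43.5 CPM (42.3 to 44.6) in the once-challenged library and 48.3 CPM (47.0 to 49.6) in the unchallenged library. It was therefore 8.83 times lower (8.05 to 9.70) in the twice-challenged than in the unchallenged library, the lowest log2 ratio of any member in that comparison at -1.91, and it was not higher in the once-challenged library, at 0.900 of the unchallenged level (0.866 to 0.934). Usp18, the protease that removes Isg15 from proteins and restrains signalling at Ifnar2, was at 1.51 CPM in the twice-challenged, 18.4 CPM in the once-challenged and 13.7 CPM in the unchallenged library. Without added CPM it was 9.06 times lower (7.60 to 10.9) in the twice-challenged than in the unchallenged library and 12.2 times lower (10.2 to 14.6) than in the once-challenged library. In 15.2% of the 31-base words at the end of its transcript, Isg15 matched another annotated gene, so its reads may in part be shared.

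Genes of the Ifit family, whose proteins bind foreign RNA ends and block translation, did not move as one. Ifit1 was at 1.98, 17.8 and 9.93 CPM in the twice-challenged, once-challenged and unchallenged libraries, 5.02 times lower (4.28 to 5.91) in the twice-challenged than in the unchallenged library. Ifit3 was at 0.411, 4.25 and 1.61 CPM and its near copy Ifit3b at 0.189, 1.49 and 0.488 CPM in the same order, levels too low to pass the rule, and 17.4% of the 31-base words at the transcript end of Ifit3 matched another gene, mainly Ifit3b, so these counts are uncertain. Ifit2, from the same locus on chromosome 19, was level at 4.54 CPM in the twice-challenged, 4.65 CPM in the once-challenged and 4.22 CPM in the unchallenged library.

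The oligoadenylate synthetase genes, which make the messenger that activates RNase L, and their relatives were mostly lowest after the second challenge. Oasl2 was at 6.25, 27.2 and 14.7 CPM in the twice-challenged, once-challenged and unchallenged libraries, 1.85 times higher (1.74 to 1.96) in the once-challenged and 2.36 times lower (2.14 to 2.60) in the twice-challenged library than in the unchallenged one. Oas1a was at 9.64, 18.3 and 22.6 CPM and Oas3 at 5.49, 15.4 and 14.9 CPM, in the same library order, and 47.8% and 47.4% of the 31-base words at their transcript ends matched another gene, so both counts are uncertain. The log2 ratio of Oas3 in the twice-challenged over the unchallenged library was -0.68, and -0.56, inside the limit, with the cluster mix of the unchallenged library. Oasl1 and Oas2 also had their lowest level in the twice-challenged library, at 2.11 and 2.36 CPM.

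Other antiviral effectors followed. Eif2ak2, the kinase PKR that halts translation on double-stranded RNA, was at 11.1, 26.2 and 22.7 CPM in the twice-challenged, once-challenged and unchallenged libraries, and Zbp1, the sensor of Z-form nucleic acid that can start necroptosis, at 3.06, 16.1 and 9.82 CPM. Isg20, an RNA exonuclease, was at 14.1 CPM in the twice-challenged, 37.4 CPM in the once-challenged and 36.9 CPM in the unchallenged library. All 3 were lower past 1.5-fold in the twice-challenged library against each of the other two, but with the cluster mix of the unchallenged library Isg20 passed in neither, at -0.20 over the unchallenged and -0.49 over the once-challenged library. Mx1, a dynamin-like GTPase, had only 51, 270 and 112 UMIs in the twice-challenged, once-challenged and unchallenged libraries.

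Rsad2, which encodes viperin, and Cmpk2, a mitochondrial nucleotide kinase, lie next to each other on chromosome 12 in opposite orientation. Rsad2 was at 3.64 CPM in the twice-challenged, 10.2 CPM in the once-challenged and 9.87 CPM in the unchallenged library, with a log2 ratio of -0.54 in the twice-challenged over the unchallenged library, just inside the 1.5-fold limit. Cmpk2 was at 13.4, 18.4 and 28.3 CPM in that order. Samd9l, a restraint on translation and growth in blood cells, was at 15.2, 18.4 and 30.8 CPM in that order. Cmpk2 and Samd9l had the lowest log2 ratios of the once-challenged over the unchallenged library, -0.43 and -0.52, but neither passed the rule. With the cluster mix of the unchallenged library, these became 0.05 for Cmpk2 and 0.23 for Samd9l, and the ratios of the twice-challenged over the unchallenged library, -0.71 and -0.69, became -0.45 and -0.29. Of all Samd9l UMIs, 49.0% came from immature neutrophil-like cells, which made up 1279, 1071 and 3531 cells of the twice-challenged, once-challenged and unchallenged libraries.

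The largest summed levels over all cells belonged to Bst2 and Ifi27l2a. Bst2, or tetherin, which holds budding virus at the membrane, was at 93.6 CPM (91.6 to 95.6) in the twice-challenged, 272 CPM (269 to 275) in the once-challenged and 125 CPM (123 to 127) in the unchallenged library. It was 2.17 times higher (2.13 to 2.21) in the once-challenged library than in the unchallenged one, the largest log2 ratio of any member there at 1.06, and only 1.34 times lower (1.30 to 1.38) in the twice-challenged than in the unchallenged library. Ifi27l2a, a small hydrophobic protein of the Ifi27 family, was at 76.4, 293 and 210 CPM in the twice-challenged, once-challenged and unchallenged libraries, 2.74 times lower (2.67 to 2.82) in the twice-challenged than in the unchallenged library. Rtp4, a chaperone of membrane receptors, was at 8.63, 58.6 and 42.1 CPM in this order, 4.88 times lower (4.52 to 5.27) in the twice-challenged than in the unchallenged library. With the cluster mix of the unchallenged library, the log2 ratio of the once-challenged over the unchallenged library was largest for Ifi27l2a, at 1.15, where it was 0.46 without it and no call, and that of Bst2 became 0.70. The log2 ratio of Bst2 in the twice-challenged over the unchallenged library then became -0.82, past the 1.5-fold limit, where it was -0.39 without it.

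Xaf1, a binding partner of the caspase inhibitor XIAP, was at 5.36 CPM in the twice-challenged, 34.3 CPM in the once-challenged and 25.7 CPM in the unchallenged library. Ifi35, the partner of Nmi, was at 15.5, 45.4 and 38.7 CPM and Ifi44 at 1.35, 14.8 and 7.59 CPM in that order. All 3 were lower in the twice-challenged library than in either other library past 1.5-fold, and Ifi44 was 11.0 times lower (9.12 to 13.3) there than in the once-challenged library without added CPM. With the cluster mix of the unchallenged library, the log2 ratio of Ifi44 in the twice-challenged over the unchallenged library was -0.56, inside the limit. Lgals3bp, a secreted galectin ligand, was at 20.9, 51.3 and 34.5 CPM and Trim30a, a ubiquitin ligase that restrains Toll-like receptor signalling, at 37.2, 60.1 and 45.6 CPM, and only the ratio of Lgals3bp between the twice-challenged and once-challenged libraries passed the rule.

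The cytoplasmic RNA sensors were scarce, near the 10 CPM added for the ratio, which understates their differences. Ifih1 (MDA5) was at 7.03, 12 and 9.79 CPM, Ddx58 (RIG-I) at 5.83, 11.1 and 11.5 CPM and Dhx58 (LGP2) at 3.57, 11.9 and 10.2 CPM in the twice-challenged, once-challenged and unchallenged libraries. Of these, only Dhx58 passed 1.5-fold, in the twice-challenged library against the once-challenged one, and with the cluster mix of the unchallenged library it passed in both comparisons with the twice-challenged library, at -0.65 over the unchallenged and -0.82 over the once-challenged one. The interacting ADP-ribosylation and ubiquitin factors Parp9 and Dtx3l, whose genes overlap at their ends on chromosome 16, differed from each other. Parp9 was at 9.57, 16.5 and 12.3 CPM, whereas Dtx3l was at 30.5 CPM in the twice-challenged, 32.7 CPM in the once-challenged and 22.9 CPM in the unchallenged library and had the highest log2 ratio of any member in the twice-challenged against the unchallenged library, 0.30. Parp14 was at 6.91, 15.6 and 11.1 CPM in the same order and passed the rule in the twice-challenged against the once-challenged library. Cxcl10, the chemokine that draws T cells through Cxcr3, was scarce in all kept cells, at 1.62, 2.80 and 2.37 CPM.

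Haematopoietic stem and progenitor (HSPC)-like cells, the cluster led by Ctla2a, Ly6a, Hlf, Adgrl4 and Cd34, numbered 457, 772 and 517 in the twice-challenged, once-challenged and unchallenged libraries, with median depths of 8048, 12378.5 and 7902 UMIs. Their summed member level was 828 CPM (800 to 856), 2137 CPM (2109 to 2166) and 1933 CPM (1894 to 1973), so that here, as over all cells, the library after the second challenge lay lowest. Between the once-challenged and unchallenged libraries, 2 of 35 members were higher (Ifi27l2a and Irf7), where 0.77% of all genes were, and 1, Rsad2, was lower, where 1.39% of all genes were. These few calls depended on the settings, as 0 members were higher with doublet calls kept, and 0 were lower with a filter of 1000 UMIs or after thinning. In the twice-challenged library, 25 of 31 members were lower than in the unchallenged library, where 13% of all genes were, and 24 of 35 were lower than in the once-challenged library, where 13.3% of all genes were. None was higher, where 2.11% and 2.88% of all genes were. The member medians of these last 2 comparisons were -0.85 and -0.70, against a shift from median-of-ratios scaling of 0.22 and 0.18.

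Isg15 in HSPC-like cells was at 13.9 CPM (10.5 to 18.1) in the twice-challenged, 85.9 CPM (80.3 to 91.8) in the once-challenged and 106 CPM (97.2 to 116) in the unchallenged library, 7.63 times lower (5.78 to 10.3) in the twice-challenged than in the unchallenged library. Ifit1 was at 8.45, 51.9 and 58.8 CPM in that order, 6.96 times lower (4.86 to 10.3). The unchallenged levels lay above the 48.3 CPM of Isg15 and the 9.93 CPM of Ifit1 over all cells, and both genes carry the ISRE cores printed above. Irf7 was at 16.4, 126 and 80.8 CPM in the twice-challenged, once-challenged and unchallenged libraries, and its ratio between the once-challenged and unchallenged libraries, 1.56 (1.39 to 1.76), lay right at the limit after 10 CPM were added (log2 0.59). Ifi27l2a, at 94.4, 307 and 177 CPM, was 1.73 times higher (1.60 to 1.87) in the once-challenged than in the unchallenged library. Bst2, at 132, 377 and 252 CPM, was 1.49 times higher (1.40 to 1.60).

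Several HSPC-like members were instead highest at steady state. Rsad2 was at 15.9 CPM in the twice-challenged, 19.8 CPM in the once-challenged and 36.7 CPM in the unchallenged library, 1.86 times lower (1.51 to 2.29) in the once-challenged than in the unchallenged library. Cxcl10 was at 2.49, 9.63 and 19.1 CPM, Oas1a at 15.2, 22.6 and 32.7 CPM, Samd9l at 10.9, 18.6 and 27.1 CPM and Cmpk2 at 9.44, 14.9 and 21.4 CPM in that order, but of these genes only Rsad2 passed 1.5-fold between the once-challenged and unchallenged libraries. Rtp4 (39.3, 148 and 160 CPM), Oasl2 (26.6, 86.5 and 90.5 CPM), Xaf1 (17.9, 68.0 and 65.7 CPM), Ifi44 (10.2, 48.7 and 48.7 CPM) and Usp18 (5.72, 31.2 and 29.6 CPM) were level between the once-challenged and unchallenged libraries and low in the twice-challenged library. Ifit3 had 1 UMI in the twice-challenged library, against 154 in the once-challenged and 44 in the unchallenged library, a ratio to the once-challenged library of 60.9 times lower with a counting interval of 10.8 to 2421.

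A few members differed little between the libraries in HSPC-like cells. Dtx3l was at 63.6, 57.7 and 60.2 CPM, Irf1 at 28.8, 33.1 and 35.3 CPM and Ifit2 at 7.70, 7.57 and 6.51 CPM in the twice-challenged, once-challenged and unchallenged libraries. The interval of each pairwise ratio of these 3 genes included 1. Lgals3bp, at 61.1, 100.3 and 82.9 CPM, and Trim30a, at 54.4, 79.99 and 89.6 CPM, were lower in the twice-challenged library by less than 2-fold.

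In immature neutrophil-like cells (led by Chil3, Ltf, Ngp and Camp), the summed level was 212 CPM in the twice-challenged, 1479 CPM in the once-challenged and 629 CPM in the unchallenged library, at median depths of 9590, 9439 and 10877 UMIs. Here 16 of 31 members were higher in the once-challenged than in the unchallenged library and 0 lower, where 1.2% and 0.226% of all genes were. In the twice-challenged library, 16 of 31 were lower than in the unchallenged library and 26 of 30 lower than in the once-challenged library, where 3.74% and 8.04% of all genes were, and 0 were higher, where 2.49% and 1.51% were. The difference between the cell groups in the size of the ratio was not tested.

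Ifi27l2a in immature neutrophil-like cells was at 19.4 CPM (17.0 to 22) in the twice-challenged, 538 CPM (524 to 551) in the once-challenged and 153 CPM (149 to 157) in the unchallenged library, 27.7 times lower (24.4 to 31.7) in the twice-challenged than in the once-challenged library. Oasl2 was at 2.06, 53.3 and 9.59 CPM and Ifit1 at 0.554, 25.4 and 4.49 CPM in that order, so both were over 5-fold higher in the once-challenged than in the unchallenged library, at 5.56 times (4.88 to 6.34) and 5.67 times (4.68 to 6.88). Bst2 (9.41, 92.5 and 30.7 CPM), Rtp4 (2.45, 81.5 and 29.0 CPM) and Zbp1 (1.19, 31.1 and 9.01 CPM) showed the same order of libraries. Isg15, which over all cells was not higher in the once-challenged library, was at 3.01, 61.3 and 34.3 CPM here, 1.79 times higher (1.63 to 1.96) in the once-challenged than in the unchallenged library. Usp18 had 3 UMIs in the twice-challenged library, against 213 and 271 in the once-challenged and unchallenged libraries. Ifi44, in contrast to its level in HSPC-like cells, was nearly absent, with 0, 12 and 23 UMIs.

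Neutrophil progenitor-like cells (led by Ctsg, Elane, Ms4a3 and Prss57) held the lowest summed levels of any named group in the once-challenged and unchallenged libraries, at 277 CPM in the twice-challenged, 627 CPM in the once-challenged and 513 CPM in the unchallenged library. Against the unchallenged library, the once-challenged library had 1 of 33 members higher and 0 lower (2.23% and 1.3% of all genes) and the twice-challenged library had 9 of 28 lower (4.94% of all genes). Bst2 stood out in these cells, at 73.4, 222 and 122 CPM, while Ifi27l2a was at 4.45, 16.0 and 17.5 CPM and Isg15 at 1.57, 15.5 and 23.1 CPM in the twice-challenged, once-challenged and unchallenged libraries.

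Mature neutrophil-like cells had the highest summed levels of the line, but they came from clusters that the libraries did not share evenly. Cluster 14, led by Wfdc17, Il1b and Cxcl2, held 432 and 279 cells of the twice-challenged and once-challenged libraries and 3 of the unchallenged one, so it allows a comparison of the challenged libraries alone, with 3876 CPM in the twice-challenged and 6631 CPM in the once-challenged library. Cluster 12, led by Mmp8 and Retnlg, held 284, 160 and 385 cells of the twice-challenged, once-challenged and unchallenged libraries and had 1000, 3760 and 2678 CPM. In cluster 12, Ifi27l2a was at 429, 1925 and 1216 CPM, Irf7 at 10.0, 120 and 53.1 CPM and Isg15 at 18.0, 106 and 159 CPM in this order. There, 5 of 15 members were higher in the once-challenged than in the unchallenged library, where 5.06% of all genes were, and 11 of 12 were lower in the twice-challenged than in the unchallenged library, where 15% of all genes were. From cluster 10 (Fcnb, Camp) over cluster 0 (Chil3, Ltf) and cluster 3 (Ly6g, Ifitm6) to cluster 12, the sum ran through 176, 197, 335 and 1000 CPM in the twice-challenged library, 737, 1542, 2147 and 3760 CPM in the once-challenged library and 371, 539, 910 and 2678 CPM in the unchallenged library.

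**Figure D2:**
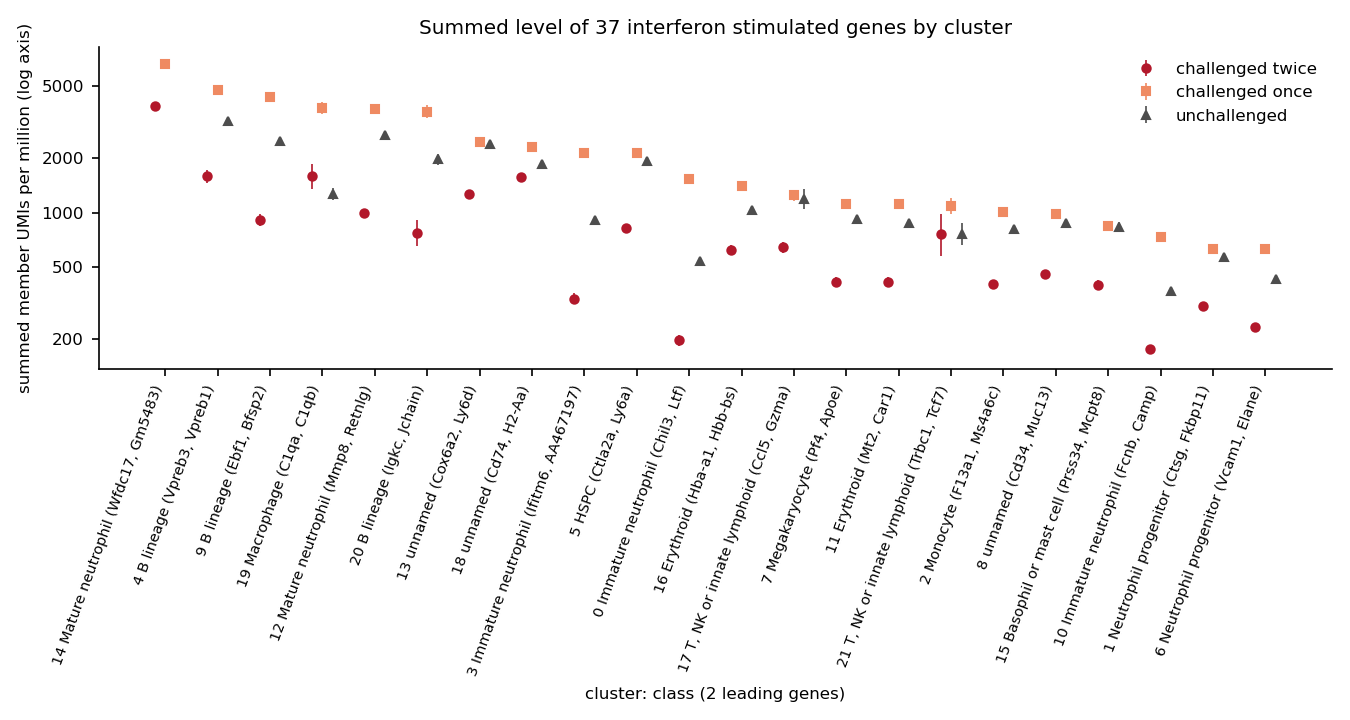
Summed level of the 37 members in each cluster with at least 20 cells of a library, in CPM on a log axis, by library, with exact 95% Poisson intervals. The twice-challenged library lies below the once-challenged library in each of the 21 clusters shared by all 3 libraries.

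B lineage-like cells were the main source of Ifi27l2a, with 37.2% of its UMIs. Their summed member level was 1078 CPM in the twice-challenged, 4503 CPM in the once-challenged and 2655 CPM in the unchallenged library, in 502, 1482 and 1235 cells with median depths of 1396, 2747 and 3617 UMIs. Of the members, 12 of 32 were higher in the once-challenged than in the unchallenged library, where 1.61% of all genes were, and 16 of 26 were lower in the twice-challenged than in the unchallenged library, where 17.9% of all genes were. Only Dtx3l was higher in that last comparison (6.25% of all genes), at 76.1 CPM in the twice-challenged, 72.8 CPM in the once-challenged and 44.1 CPM in the unchallenged library.

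Ifi27l2a was at 502, 2496 and 1427 CPM in these B lineage-like cells, and Irf7 was at 6.28, 103 and 29.6 CPM in the twice-challenged, once-challenged and unchallenged libraries. For Irf7 the once-challenged level was 3.49 times the unchallenged one (2.97 to 4.10), a larger ratio than in HSPC-like cells, though the difference between the cell groups was not tested. Isg15 was reduced to 3 UMIs in the twice-challenged library, or 2.35 CPM, against 101 and 81.4 CPM in the once-challenged and unchallenged libraries, 34.6 times lower than in the unchallenged library with a wide counting interval of 11.8 to 168.

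Other groups showed the same order with their own leading genes. Erythroid-like cells held 59.4% of all Isg20 UMIs, at 140 CPM in the twice-challenged, 167 CPM in the once-challenged and 166 CPM in the unchallenged library, so the all-cell drop of Isg20 went with fewer erythroid-like cells (259, 621 and 569) and a within-group level 1.19 times lower (1.09 to 1.30) in the twice-challenged than in the unchallenged library. With the cluster mix of the unchallenged library, the all-cell log2 ratio of Isg20 between these libraries was -0.20, against -0.96 without it. In the same cells Irf7 was at 9.35, 87.7 and 41.8 CPM and Isg15 at 8.87, 69.1 and 71.6 CPM, and 15 of 26 members were lower in the twice-challenged than in the unchallenged library, where 5.95% of all genes were. Monocyte-like cells, which held the largest share of Bst2 UMIs (24.0%), had that gene at 139, 359 and 246 CPM and had 11 of 23 members lower in the twice-challenged than in the unchallenged library, where 5.89% of all genes were. Macrophage-like cells were the exception for Ifi27l2a, with 599 CPM from 62 UMIs in 47 twice-challenged cells, 1208 CPM in the once-challenged library and 262 CPM in the unchallenged library. That gene was thus 2.29 times higher (1.67 to 3.13) in the twice-challenged than in the unchallenged library there. Other genes differed in both directions in these cells. Bst2 (145 against 113 CPM) and Lgals3bp (164 against 58.3 CPM) were higher, and Isg15 (38.7 against 62.4 CPM) and Rtp4 (38.7 against 70.4 CPM) lower. Of genes used by all cells, Eef1a1 was higher (2494 against 1366 CPM) and Ppia lower (1837 against 2414 CPM). The share of all genes higher there is not given.

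Over the 21 clusters with at least 20 cells of each library, the summed level was higher in the once-challenged than in the unchallenged library in all 21, with intervals apart in 18, by 1.01 times in cluster 15 to 2.99 times in cluster 19. It was lower in the twice-challenged than in the unchallenged library in 20, with intervals apart in 19, by up to 2.74 times in cluster 0. Cluster 19 (macrophage-like) was 1.25 times higher, with overlapping intervals, at 1585 CPM (1352 to 1847) against 1265 CPM (1168 to 1368). Ifi27l2a alone gave 599 and 262 CPM of these sums. The twice-challenged library was below the once-challenged library in all 21, with intervals apart in each. Ifi27l2a and Bst2 are part of each sum, and sums without them are not given by cluster. In cluster 5 (HSPC-like) the sum was 2137 CPM in the once-challenged and 1933 CPM in the unchallenged library. The median log2 ratio between these libraries there was -0.15 over 13 members with an ISRE core and -0.006 over 14 without, so neither median was a rise. Members without a promoter in the RefSeq table, Ifi27l2a among them, enter neither median. Over the 14 cell groups, Isg15 was lower in the twice-challenged than in the unchallenged library in 10 of the 10 groups in which it could be tested, Irf7 in 8 of 8, Ifi35 in 11 of 11, Xaf1 in 9 of 9, Ifi27l2a in 10 of 14 and Bst2 in 10 of 13. Mature neutrophil-like cells enter here as clusters 12 and 14 together, in which Ifi27l2a was at 1109 CPM in the twice-challenged and 1226 CPM in the unchallenged library, and so was not lower, unlike in cluster 12 alone. Of the 37 members, 30 were lower in that comparison in at least 1 group. Ifit2, Ifih1, Parp9 and Dtx3l could be tested in 3, 5, 9 and 11 groups and were lower in none. Ifit3, Ifit3b and Mx1 had too few UMIs to be tested in any group. The share of all genes lower in at least 1 group is not given. In the once-challenged against the unchallenged library, Irf7 was higher in 7 of 11 groups, Bst2 in 7 of 14 and Oasl2 in 6 of 10, while Isg15 was higher in 1 of 10 and lower in 1. Over the same groups, the share of all genes lower in the twice-challenged than in the unchallenged library ran between 3.74% in immature neutrophil-like cells and 26.6% in the T, NK or innate lymphoid group. For the once-challenged over the unchallenged library, the share higher ran between 0.313% in erythroid-like and 31.7% in macrophage-like cells, and the share lower between 0.226% in immature neutrophil-like and 9.8% in macrophage-like cells.

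**Figure D3:**
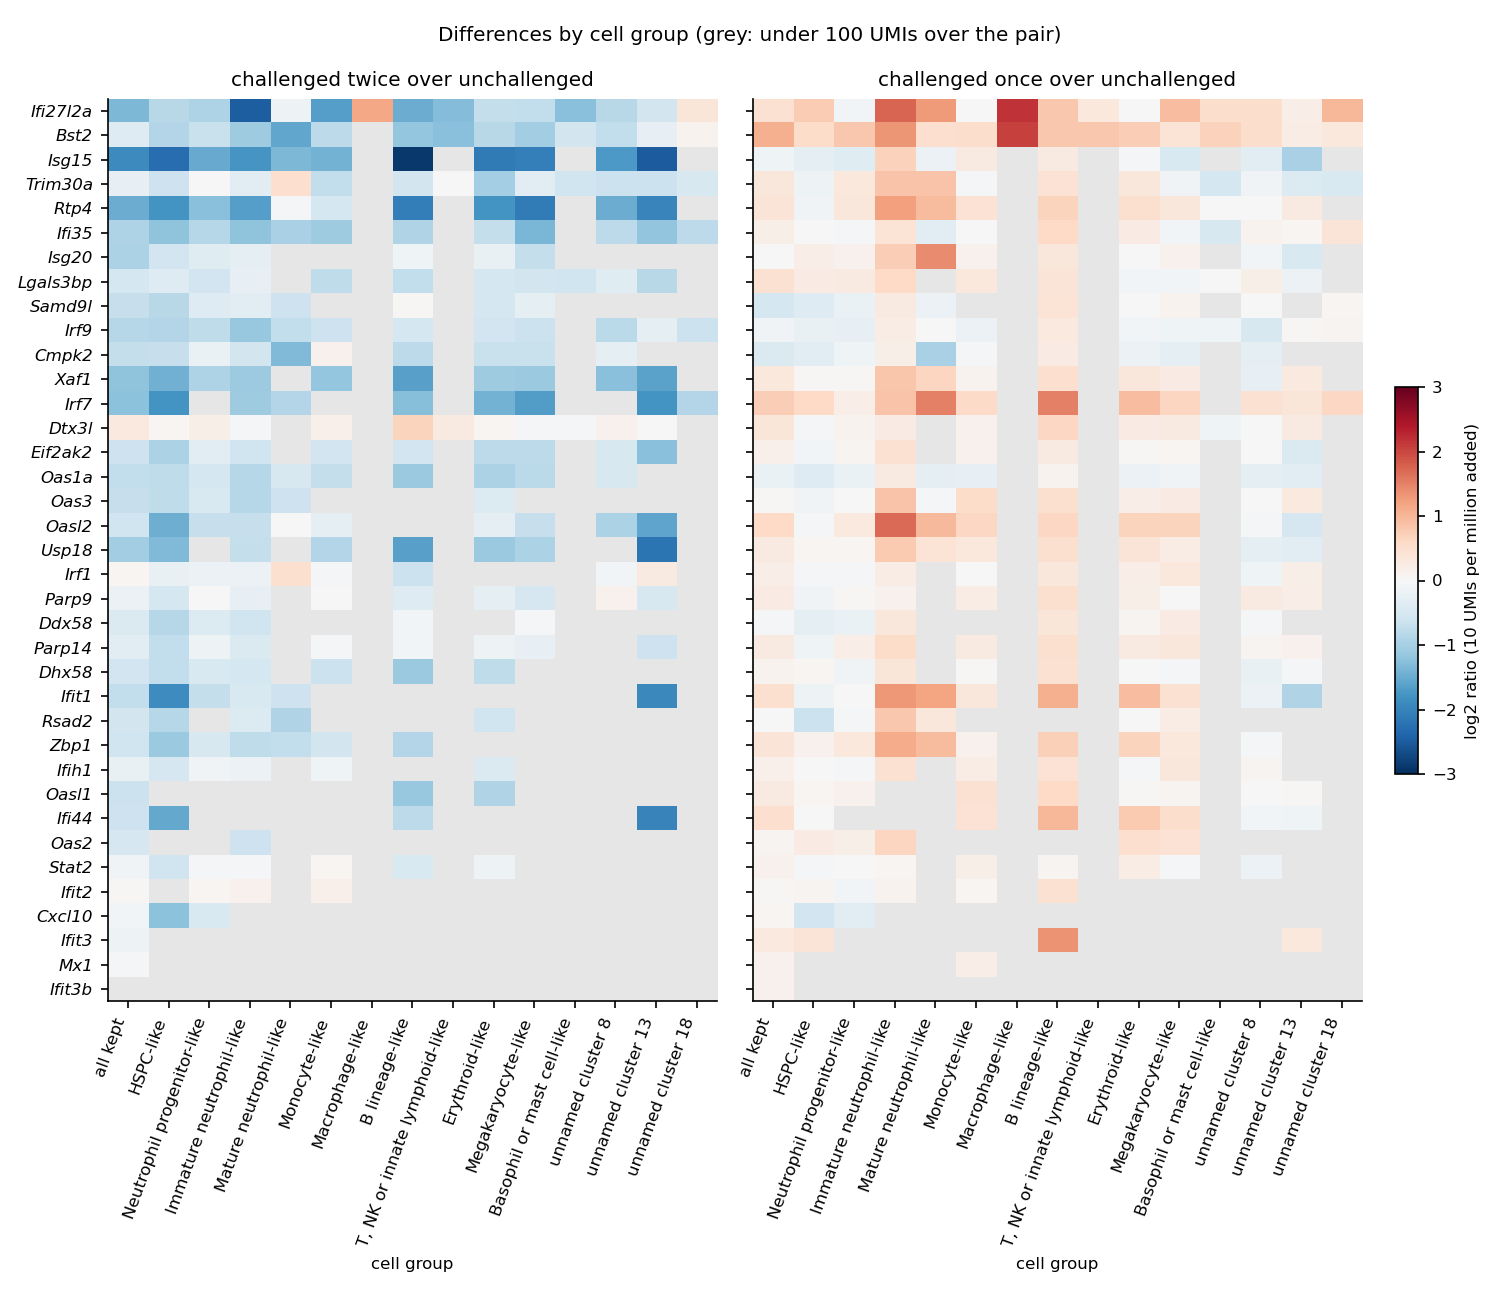
Log2 ratio of each member, with 10 CPM added, in all kept cells and in each cell group, for the twice-challenged over the unchallenged (left) and the once-challenged over the unchallenged library (right). Grey cells had under 100 UMIs over the pair. Isg15 is low on the left in all 10 groups tested, and in the right panel Ifi27l2a and Bst2 are higher past 1.5-fold in 7 of 14 groups each.

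**Figure D4:**
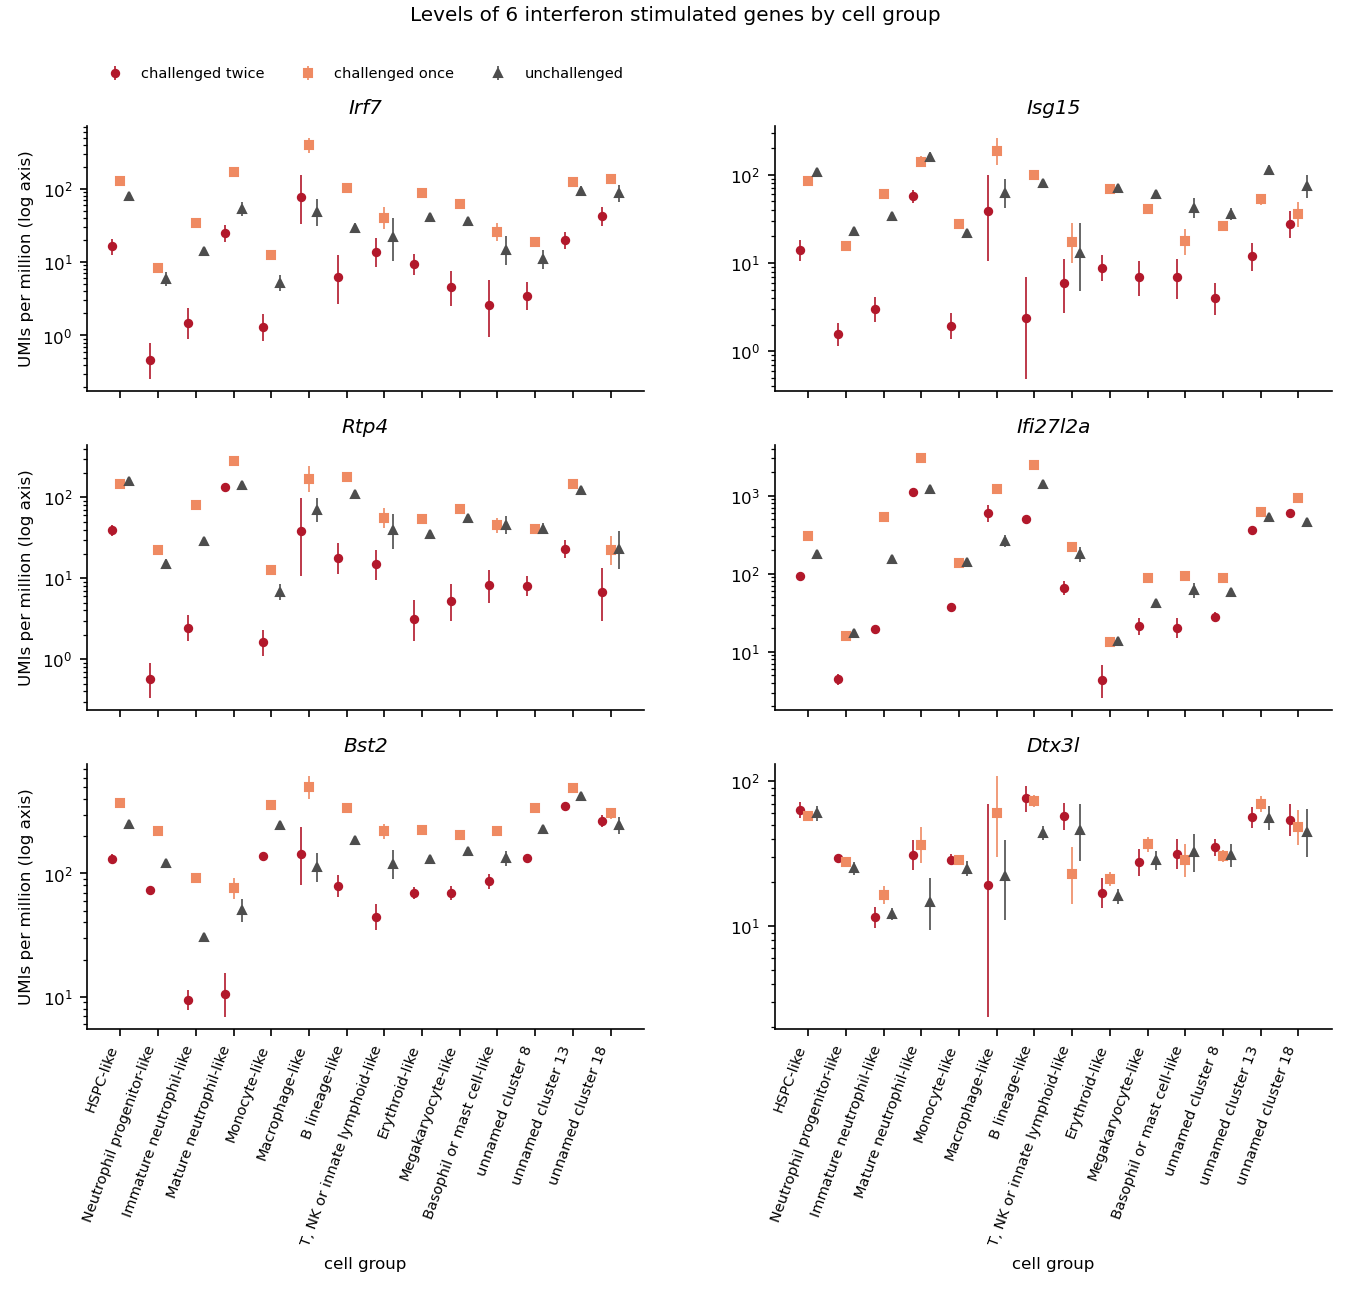
Levels of 6 members (Irf7, Isg15, Rtp4, Ifi27l2a, Bst2 and Dtx3l) in each cell group, in CPM on a log axis, in the twice-challenged, once-challenged and unchallenged libraries, with exact 95% Poisson intervals. Irf7 and Isg15 lie lowest in the twice-challenged library in most groups. Dtx3l has no group in which it was called lower in the twice-challenged than in another library, and Ifi27l2a spans from 4.31 CPM in erythroid-like to 3004 CPM in mature neutrophil-like cells.

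Per cell, with every cell thinned to 2000 UMIs so that depth does not set the share, 24.6% (23.6 to 25.6) of twice-challenged cells, 65.1% (64.0 to 66.1) of once-challenged cells and 50.7% (49.6 to 51.7) of unchallenged cells held at least 2 member UMIs. Without thinning the shares were 78.3%, 97.8% and 93.6%, and thinning left out 760, 673 and 382 shallower cells. In HSPC-like cells the thinned shares were 49.2% (44.6 to 53.9), 81.7% (78.8 to 84.4) and 79.7% (75.9 to 83.1), and in neutrophil progenitor-like cells, which had the lowest sums in the unchallenged library and median depths of 14113, 25955 and 17897 UMIs, they were 10.6%, 37.8% and 25.7%. These shares follow the mean level and the mix of cells as well as the spread between cells, and the share from free RNA was not measured. In immature neutrophil-like cells 7.74%, 66.8% and 34.6% reached the limit, and in B lineage-like cells 50.9%, 93.9% and 87.8%. The median depth of B lineage-like cells lay under 2000 UMIs in the twice-challenged library alone. Thinning thus left out most of these cells there, and less of them in the other libraries. For single genes, Isg15 was seen in 1.54% of thinned twice-challenged cells, 10.8% of once-challenged cells and 9.36% of unchallenged cells, and Irf7 in 1.16%, 11.5% and 5.27%.

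**Figure D5:**
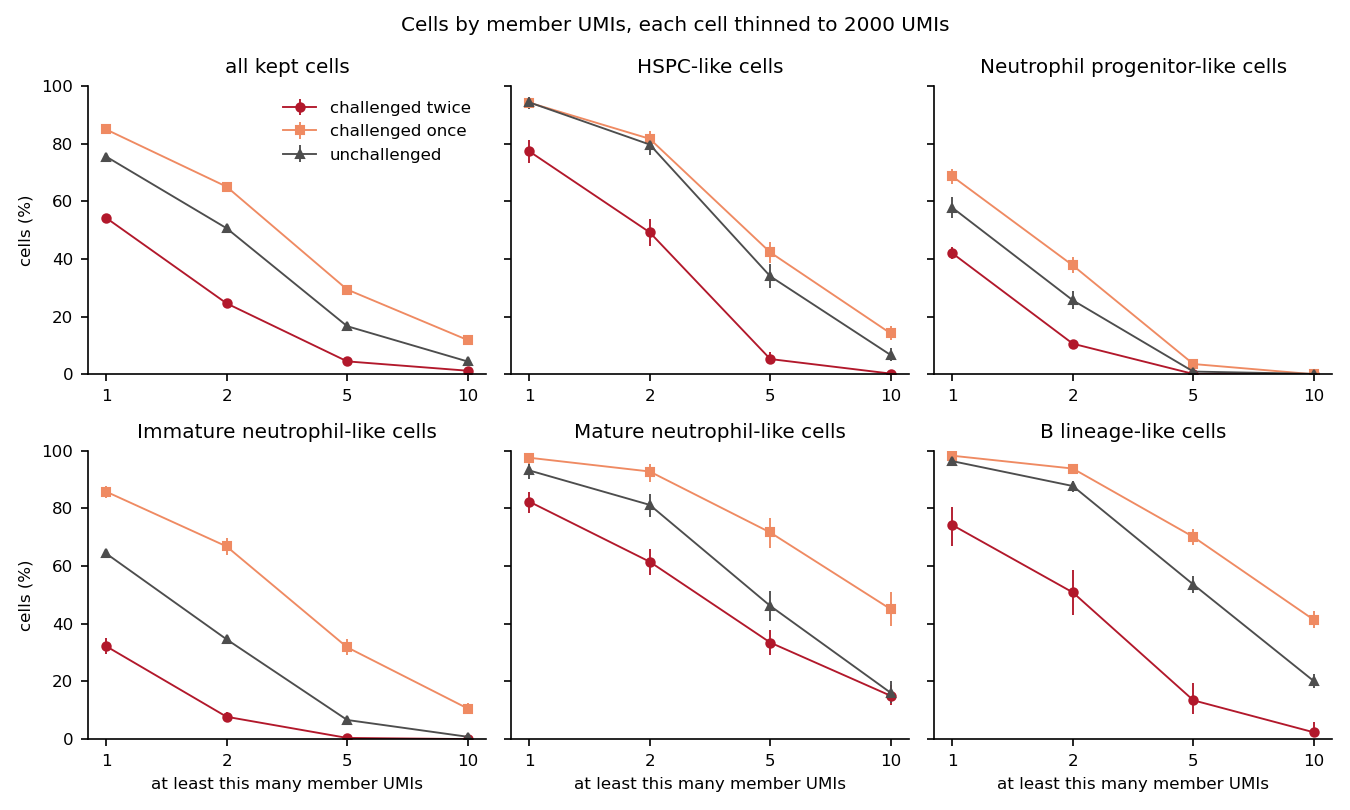
Share of cells with at least the number of member UMIs on the horizontal axis, in percent, after each cell was thinned to 2000 UMIs. Panels show all kept cells and HSPC-like, neutrophil progenitor-like, immature neutrophil-like, mature neutrophil-like and B lineage-like cells, by library, with exact 95% binomial intervals. Cells under 2000 UMIs were left out, among them most twice-challenged B lineage-like cells. At a limit of 2 member UMIs, the twice-challenged share over all cells was 24.6%, below 65.1% in the once-challenged and 50.7% in the unchallenged library.

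Among the genes upstream of the members, no interferon gene could be tested, as all 12 had under 100 UMIs over each pair; Ifnb1 had 0 UMIs in each library and Ifng had 78, 13 and 20 UMIs in the twice-challenged, once-challenged and unchallenged libraries. Of 9 receptor chains and kinases, 0 were higher or lower in any comparison, with Ifnar1 at 13.2, 16.3 and 12.1 CPM and Tyk2 at 11.7, 10.9 and 8.21 CPM. The same held for 7 other transcription factors, with Irf3 at 22.6, 36.4 and 28.0 CPM. Among 8 negative regulators tested, Irf2bp2 alone was higher in the twice-challenged than in the unchallenged library, at 138, 95.2 and 85.7 CPM, and Socs1, the inhibitor of Jak kinases, was at 2.07, 5.64 and 4.34 CPM. Among the nucleic acid sensors and adaptors, Tmem173, which encodes STING, was higher in both challenged libraries, at 25.6, 26.2 and 12.3 CPM. Of all genes, 2.32% were higher in the twice-challenged and 2.01% in the once-challenged than in the unchallenged library.

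Interferon stimulated genes outside the 38 had smaller ratios on the median. Over all cells, 4 of 62 were lower in the twice-challenged than in the unchallenged library and 1 higher. Of all genes, 4.0% were lower and 2.32% higher, so these counts lay near the shares over all genes. The median log2 ratio was -0.17 against -0.60 for the members and -0.02 for all genes. Ube2l6, the conjugating enzyme that passes Isg15 to its targets, was at 12.4, 42.5 and 57.7 CPM in the twice-challenged, once-challenged and unchallenged libraries and Slfn2, which guards lymphocyte quiescence, at 37.2, 59.1 and 117 CPM. Ifi27, the paralogue of Ifi27l2a, was at 55.4, 110 and 159 CPM. Ccl5, a chemokine that T and NK cells also make, went the other way, at 120, 35.5 and 15.7 CPM, and lymphoid cells named as T, NK or innate-like numbered 366, 102 and 65 in those libraries. In HSPC-like cells, 17 of 44 such genes were lower in the twice-challenged than in the unchallenged library, where 13% of all genes were. Of 12 genes used by all cells, 0 were lower and 1, Ywhaz, higher over all cells in that comparison. In HSPC-like cells 3 of the 12 were lower, beside the same 13% of all genes.

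The members with and without an ISRE core can be set side by side. Over all cells, 5 of 13 members with a core were lower in the twice-challenged than in the unchallenged library, with a median log2 ratio of -0.44. Without a core it was 10 of 14, with a median of -0.67, where 4.0% of all genes were lower. In HSPC-like cells 11 of 12 with a core and 8 of 12 without were lower, with medians of -0.85 in both, where 13% of all genes were. The all-cell ratios also follow the mix of cells, and the difference between members with and without a core was not tested.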

How the data were processed

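The deposited tables hold whole-number UMI counts per gene and cell, 1 table for each of the 3 libraries, made with the 10x Genomics Single Cell 3' kit V2 per the labels and with Cell Ranger 3.0.0 and mm10 per the submitters' processing notes. No further step by the authors is given in the sources used here. The smallest barcode in each table had 500 UMIs.

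A barcode was taken as a cell if it reached 500 UMIs and 300 detected genes with no more than 10% of its UMIs mitochondrial, and Scrublet calls (256, 295 and 409 in the twice-challenged, once-challenged and unchallenged libraries) were removed. Cells were clustered with scanpy 1.11.5 and leidenalg 0.10.2 on 2000 variable genes, 30 components and 15 neighbours at resolution 1, without the members and related genes. Clusters were named from fixed marker lists (at least 3 markers at 2-fold, and at least 2 among the 10 leading genes). A cluster stayed unnamed if another list held more of these leading genes, or at least 3 of them. Neutrophil, B lineage, erythroid and lymphoid names each cover more than 1 cluster. UMIs were summed per library and cell group and given as CPM. Ratios used 10 added CPM and genes that reached 100 UMIs in the 2 libraries summed, with calls at 1.5-fold. The code was tested on simulated data. Folds without added CPM carry conditional exact intervals, and 3 UMIs are the floor for a zero count. The members and all lists were chosen with earlier results of these data known. Full values are given for 21 members named by rule (the 10 largest ratios per comparison over all kept and over HSPC-like cells, the 8 most abundant and the 2 most concentrated in 1 group); Dtx3l, Ifit2, Irf1, Zbp1 and other members outside it were chosen after their values were seen. Positions are from GENCODE M21 (GRCm38), and promoters from RefSeq.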

Additional observations from a re-analysis of the deposited data

Results flagged for a closer look

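Ifi27l2a differed in opposite directions in 2 cell groups between the twice-challenged and the unchallenged library. In macrophage-like cells its log2 ratio, with 10 CPM added, was 1.17, from 62 UMIs in 47 twice-challenged cells and 130 UMIs in 121 unchallenged cells, and in immature neutrophil-like cells it was -2.47, from 245 UMIs and 6000 UMIs. The ratios differ by 3.64 on the log2 scale. With 1 library per group the difference was not tested. Other genes in macrophage-like cells also differed in both directions, and the share of all genes higher there is not given. The macrophage-like cells had median depths of 906, 824 and 940 UMIs in the twice-challenged, once-challenged and unchallenged libraries.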

How the results depend on the processing

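The count of members higher in the once-challenged than in the unchallenged library over all kept cells was 3, and became 1 with median-of-ratios scaling, 9 after thinning each cell to 2000 UMIs, 9 with 1 added CPM and 7 with the cluster mix of the unchallenged library, an alternative chosen after seeing the data. The count lower there was 0, and became 1 with median-of-ratios scaling and 2 with 1 added CPM. In HSPC-like cells the 2 higher members became 1 with a filter of 1000 UMIs and 500 genes, 1 with no filter, 0 with doublet calls kept and 1 when clustering used all variable genes, and the 1 lower member became 0 with the 1000 UMI filter, 0 after thinning and 2 with 1 added CPM. After thinning, fewer genes could be tested in HSPC-like cells, and 8 members were lower in the twice-challenged than in the unchallenged library and 12 lower than in the once-challenged library. The number of members tested after thinning is not given, nor is the share of all genes under any setting here. These thinned counts therefore cannot be set against those reported above. Outside the thinned HSPC-like counts, counts of lower members in the twice-challenged library over all kept and over HSPC-like cells stayed within 1.5 times of those reported. Counts in the other cell groups were not recomputed. Without thinning, the share of cells with at least 2 member UMIs was 78.3%, 97.8% and 93.6% over all kept cells and 95.0%, 99.4% and 99.4% in HSPC-like cells of the twice-challenged, once-challenged and unchallenged libraries. With a limit of 5 UMIs it was 4.47%, 29.4% and 16.7% over all kept cells and 5.28%, 42.3% and 34.0% in HSPC-like cells. The twice-challenged library had the lowest share in each. The once-challenged share was the highest except in HSPC-like cells without thinning, where it and the unchallenged share were both 99.4%, near the ceiling. Where not named, the cause was not tested. No paired analysis was possible because each group has 1 library. With 1 library per group, intervals leave out the spread between animals and preparations, and scarce members such as Mx1 and Ifit3b are limited by depth.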
